A study of Mus musculus with 6 samples.

Results

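Pol II occupancy was examined at 44 genes of mitosis and of the passage from G2 into mitosis. They were chosen by name from a list of gene symbols, with earlier results of these data known. All 44 were found among the 12107 genes with counts, each with a promoter, a gene body and a region at the transcription end site (TES), which gave 132 gene regions. Chromatin was precipitated for sequencing (ChIP-seq) through the N-terminal part of POLR2A (RPB1), the largest subunit of RNA polymerase II. The cells were neural precursor cells (NPCs), grown as second-passage neurospheres in epidermal growth factor from the ganglionic eminences of mouse fetuses at e13.5. The 3 KO libraries came from Armc5 knockout cells with the genotype Armc5(-/-), and the 3 WT libraries came from wild-type cells. ARMC5 is the substrate adaptor of a CUL3 ubiquitin ligase that acts on POLR2A. The labels give the strain of both groups as 129 sv X CD1, while the methods of the study name CD1 and C57BL/6 as the background. Armc5 itself is not among the 12107 genes with counts, so the genotypes could not be checked at that gene and are as the labels give them. The sources used here do not say how many fetuses went into a library. KO and WT libraries carry replicate numbers 1 to 3 and were prepared as 3 biological replicate pairs. Values below are given in the order of replicates 1, 2 and 3. Levels are CPM, counts scaled to library size with TMM factors, and a log2 fold change is KO over WT from a limma-voom fit that takes the pair as a block.

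Genes of this class are transcribed late in the cell cycle. Their promoters are held silent in quiescent and G1 cells by the DREAM complex and are switched on in late S phase and G2, when the MuvB core binds B-MYB and FOXM1 in place of the repressor. MuvB recognises a short element called the CHR (cell cycle genes homology region), usually placed near the start site, and NF-Y binds CCAAT boxes upstream of it. In neural precursors of the ventral forebrain, which divide through most of neurogenesis, these genes are ordinary markers of cycling cells. In such bulk libraries, a smaller share of cells in G2 and mitosis and less Pol II per cell at these genes cannot be told apart.

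The promoter sequences are shown because these elements are known from genes of this class. RefSeq promoters of build GRCm38.p6, from 250 bases before to 50 bases after the gene start, were matched by symbol for 36 of the 44 genes. The genes that were not matched were Aurkb, Ccna2, Cdc25c, Foxm1, Incenp, Kif20a, Smc4 and Tpx2. The letters searched on both strands were TTTGAA or TTCGAA for the CHR, CCAAT for the NF-Y box, and TTTCGCGC, TTTGGCGC or TTTCCCGC for E2F. TTCGAA is its own reverse complement and was counted once, and no match of one motif overlapped a match of another in these promoters. CHR letters were found in 29 of the 36 promoters (80.6%), against 21.7% of 27025 genes in the same table. For 14 of the 29, the match lay only in the bases after the start, and with the upstream bases alone the share was 41.7%, against 19.6% of all genes. CCAAT letters were found in 27 of the 36 (75%), against 41.1% of all genes, and 18 of them held at least 2 copies. Both CHR and CCAAT letters were held by 25 promoters, and the 3 motifs were all absent from 5, those of Birc5, Mad2l1, Ncaph, Nuf2 and Nusap1. E2F letters occurred in 2, those of Cdk1 and Ncapd2 (5.56%, against 2.12% of all genes). CCAAT letters lay at a median position of -74 bases from the start and CHR letters at a median of -10.0 bases. A match describes letters and not a bound site, and the RefSeq start can differ from the start used for the counts.

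The 150 bases upstream of the start are given, 5′ to 3′, for genes whose values recur below, with motif letters in capitals. Cdk1 (chr10:69352913-69353062, minus strand) has CHR and CCAAT letters, several of each, and an E2F match. Cdc20 (chr4:118437344-118437493, minus strand) has a CHR match between CCAAT matches. Top2a (chr11:99024190-99024339, minus strand) has several matches of both motifs, and Mki67 (chr7:135716380-135716529, minus strand) has 2 CHR matches downstream of a CCAAT match. Ttk (chr9:83834539-83834688, plus strand) and Bub1 (chr2:127831860-127832009, minus strand) hold CCAAT letters here and their CHR letters after the start, and Mad2l1 (chr6:66535071-66535220, plus strand) holds none.
Cdk1: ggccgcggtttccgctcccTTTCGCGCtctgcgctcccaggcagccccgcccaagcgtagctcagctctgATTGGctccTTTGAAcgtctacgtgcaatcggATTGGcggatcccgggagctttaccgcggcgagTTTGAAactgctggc
Cdc20: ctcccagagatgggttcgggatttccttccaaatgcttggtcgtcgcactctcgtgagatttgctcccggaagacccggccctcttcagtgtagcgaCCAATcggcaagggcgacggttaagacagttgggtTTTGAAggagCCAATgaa
Top2a: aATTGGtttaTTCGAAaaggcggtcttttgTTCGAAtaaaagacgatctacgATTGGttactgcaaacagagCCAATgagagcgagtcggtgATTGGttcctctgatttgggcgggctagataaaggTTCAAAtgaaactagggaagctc
Mki67: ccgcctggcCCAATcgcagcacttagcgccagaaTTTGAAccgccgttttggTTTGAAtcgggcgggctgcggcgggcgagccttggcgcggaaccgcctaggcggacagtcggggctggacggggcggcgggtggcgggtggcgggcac
Ttk: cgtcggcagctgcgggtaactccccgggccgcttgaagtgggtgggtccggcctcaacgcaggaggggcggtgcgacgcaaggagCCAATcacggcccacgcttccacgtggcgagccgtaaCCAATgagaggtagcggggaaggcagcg
Bub1: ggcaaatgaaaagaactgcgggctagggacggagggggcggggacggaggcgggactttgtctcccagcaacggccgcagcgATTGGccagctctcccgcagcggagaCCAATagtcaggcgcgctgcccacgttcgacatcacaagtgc
Mad2l1: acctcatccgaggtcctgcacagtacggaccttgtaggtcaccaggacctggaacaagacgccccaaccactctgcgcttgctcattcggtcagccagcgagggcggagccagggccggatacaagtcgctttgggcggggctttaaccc

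The libraries held 14528870 to 25199455 counts over the 3 regions of all genes. Promoters took 6.04 to 12.2% of the counts of a library, and the lowest shares were those of pair 3 in both genotypes. One repeat-like gene, Gm10800, took 1.71 to 31.4% of promoter counts. Y-linked genes summed to 0.62 CPM in WT replicate 3, against 124 to 234 CPM in the other 5 libraries. Of 14 markers of neural precursors, 12 were measured, with promoters at a median rank of 70.8% among all genes, while 1 of 8 microglia and blood markers was measured. Of the neuron markers 9 of 11 were measured, and of the oligodendrocyte lineage markers 5 of 7. Their promoters had median ranks of 8.24% and 25.2%. The authors had removed genes without signal in KO, so these counts of measured markers do not describe WT separately. By gene body counts, not corrected for length, the median ranks were 50.0% for neural precursor, 64.9% for neuron and 72.9% for oligodendrocyte lineage markers.

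All 44 genes carried Pol II in both genotypes, with promoter density above gene body density in each. Promoter density had a median of 12.6 CPM per kb in KO and 12.7 CPM per kb in WT, and gene body density a median of 1.43 CPM per kb in KO and 1.38 CPM per kb in WT. Among all 12107 promoters, the 44 ranked from 17.5% to 92.2% with a median of 53.7%, so the class was neither weakly nor strongly loaded as a whole. The highest promoter level belonged to Ttk, which encodes the checkpoint kinase MPS1, and the lowest rank to Bub1b, which encodes the checkpoint protein BUBR1. TES density was highest for Kif23, whose window also covers Rplp1, a ribosomal protein gene on the same strand.

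No region of the 44 genes passed the test between KO and WT at an adjusted p under 0.1, in promoters, gene bodies or TES regions. Over all genes, 0.173% of promoters, 0.206% of gene bodies and 0.0248% of TES regions were called. At an unadjusted p under 0.05, 7 gene bodies (15.9%), 4 promoters (9.09%) and 1 TES region (2.27%) were reached, all higher in KO, against 8.41%, 9.95% and 6.24% over all genes in either direction. KO and WT libraries did not overlap for 1 gene body (Smc4), 1 promoter (Kif4) and 0 TES regions, while 2.1% of all gene bodies, 2.57% of all promoters and 4.09% of all TES regions showed no overlap. The share of promoters with a small p was close to that of all promoters, the share of gene bodies was above it and the share of TES regions below it.

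Gene bodies leaned upward in KO without a call. The fitted log2 fold change was above 0 for 41 of the 44 genes, with a median of 0.14 and a range of -0.03 to 0.42, while the median over all gene bodies was -0.01 and 45.3% of them were above 0. The smallest adjusted p was 0.358. Replicate pairs did not share this shift. In pair 1 the KO library was higher for 44 of 44 gene bodies, with a median difference of 0.59 on the log2 scale, and 37 of the 44 differences lay above the 95th percentile of all genes in that pair. In pair 2 the median was -0.06, with 11 of 44 above 0, and in pair 3 it was -0.01, with 20 of 44 above 0. The corresponding medians of all gene bodies were -0.02, 0.02 and -0.04. Without pair 1 the median of the fitted values was -0.04, with 12 of 44 above 0.

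**Figure D1:**
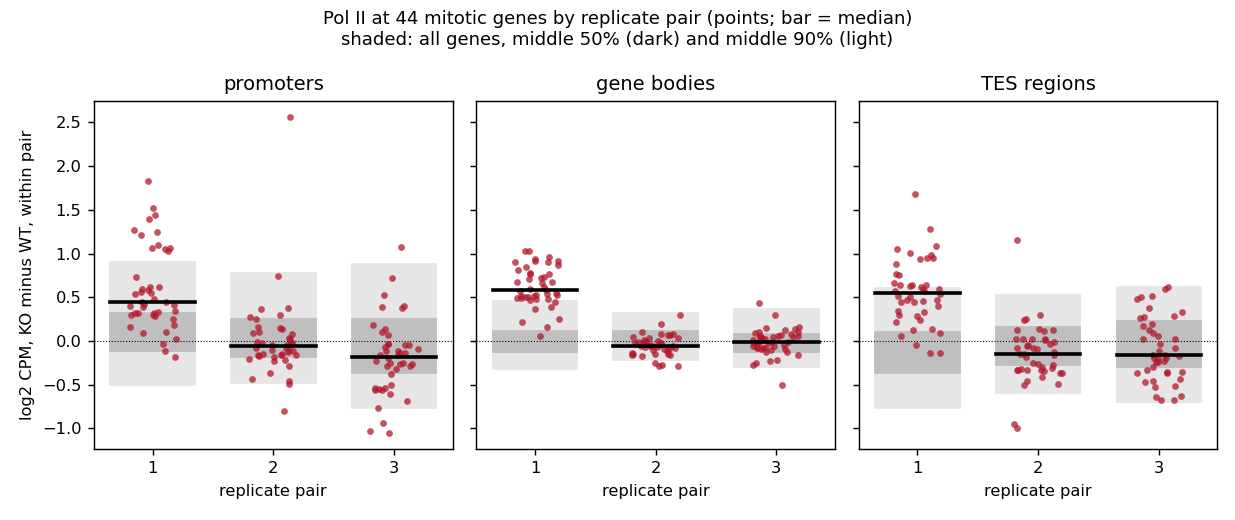
Difference in log2 CPM, KO minus WT, within each replicate pair for the promoters, gene bodies and TES regions of 44 mitotic genes (red points, with the median as a black bar), over the middle 50% and 90% of all 12107 genes (dark and light shading). In pair 1 the members' medians are 0.45, 0.59 and 0.55, and in pairs 2 and 3 all medians lie between -0.18 and -0.01.

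A single library stood low in pair 1. WT replicate 1 was the lowest of the 6 libraries in 44 of 44 gene bodies, against 22.4% of all gene bodies. It was also the lowest in 38 of 44 TES regions (17.5% of all) and 18 of 44 promoters (11.0% of all). At promoters KO replicate 3 was the lowest for 19 of 44, and for 5737 of 12107 over all genes. Gene bodies of WT replicate 1 differed from those of WT replicate 2 by a median of -0.96 on the log2 scale. Over all gene bodies the median of the same difference was -0.04. The KO library of the same pair also stood below KO replicate 2, by a median of -0.27. Summed over the 44 genes, gene body levels were 1403, 1661 and 2073 CPM in KO, against 917, 1717 and 2146 CPM in WT. These sums averaged 1713 ± 338 CPM in KO and 1594 ± 624 CPM in WT (SD, n = 3 each), so the spread among WT libraries exceeded the difference between the groups. WT replicate 1 held 18863084 counts, between the others, and the part of depth in this difference was not tested.

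**Figure D2:**
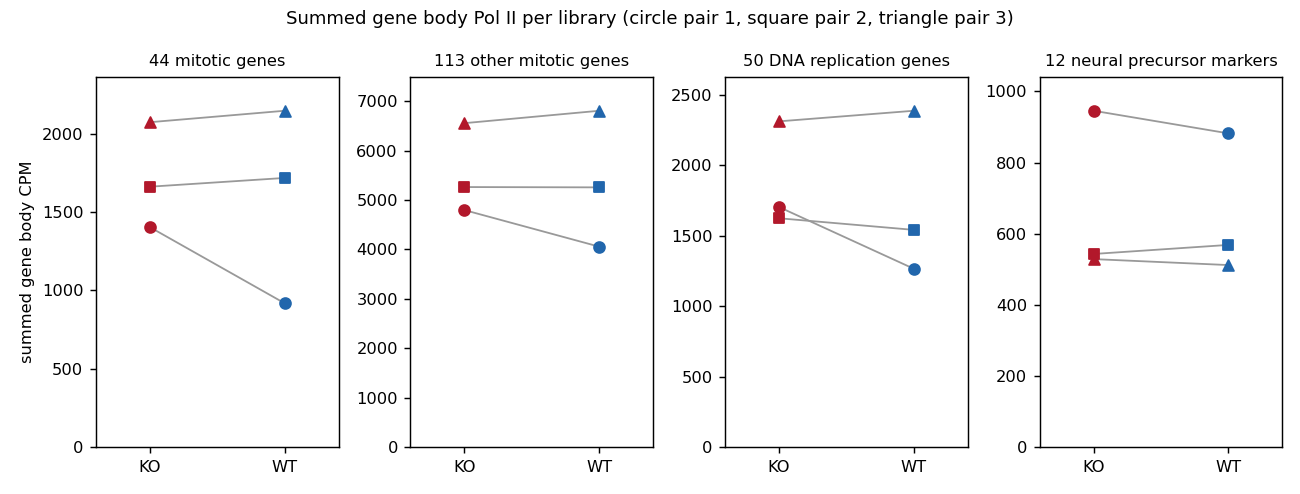
Summed gene body CPM per library, KO left and WT right, for the 44 mitotic genes, 113 other mitotic genes, 50 DNA replication genes and 12 neural precursor markers, with lines joining the libraries of a pair. WT replicate 1 is lowest in the first 3 panels, at 917, 4056 and 1265 CPM, while in the marker panel both pair 1 libraries are the highest, at 946 CPM in KO and 882 CPM in WT.

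The same pattern was looked for in further genes of the cell cycle. A list of 113 other measured mitotic genes, chosen with knowledge of these data, had 0 gene bodies called. At an unadjusted p under 0.05 it had 15 (13.3%), all higher in KO, against 8.41% of all gene bodies in either direction. The list had a median of 0.12 and 92 of 113 above 0. Its pair medians were 0.40, -0.00 and -0.03, and WT replicate 1 was the lowest library for 86 of 113. Of 50 measured DNA replication genes, 0 gene bodies were called. An unadjusted p under 0.05 was reached by 15 (30%), all higher in KO, against the same 8.41% of all gene bodies. Above 0 were 46 of the 50, with a median of 0.20 and pair medians of 0.54, 0.04 and 0.04. WT replicate 1 was the lowest for 42 of these 50. Markers of neural precursors summed to 946, 543 and 528 CPM in KO gene bodies, against 882, 568 and 512 CPM in WT, so those markers were higher in both libraries of pair 1. Markers of the oligodendrocyte lineage, 5 of 7 measured, summed to 416, 250.3 and 303 CPM in KO gene bodies, against 440, 249.1 and 297 CPM in WT, and were likewise highest in pair 1, with WT replicate 1 the highest library. The part of these cell types in the mitotic values was not tested. Markers of neurons, 9 of 11 measured, summed to 1040, 1233 and 1371 CPM in KO gene bodies, against 1137, 1113 and 1458 CPM in WT.

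**Figure D3:**
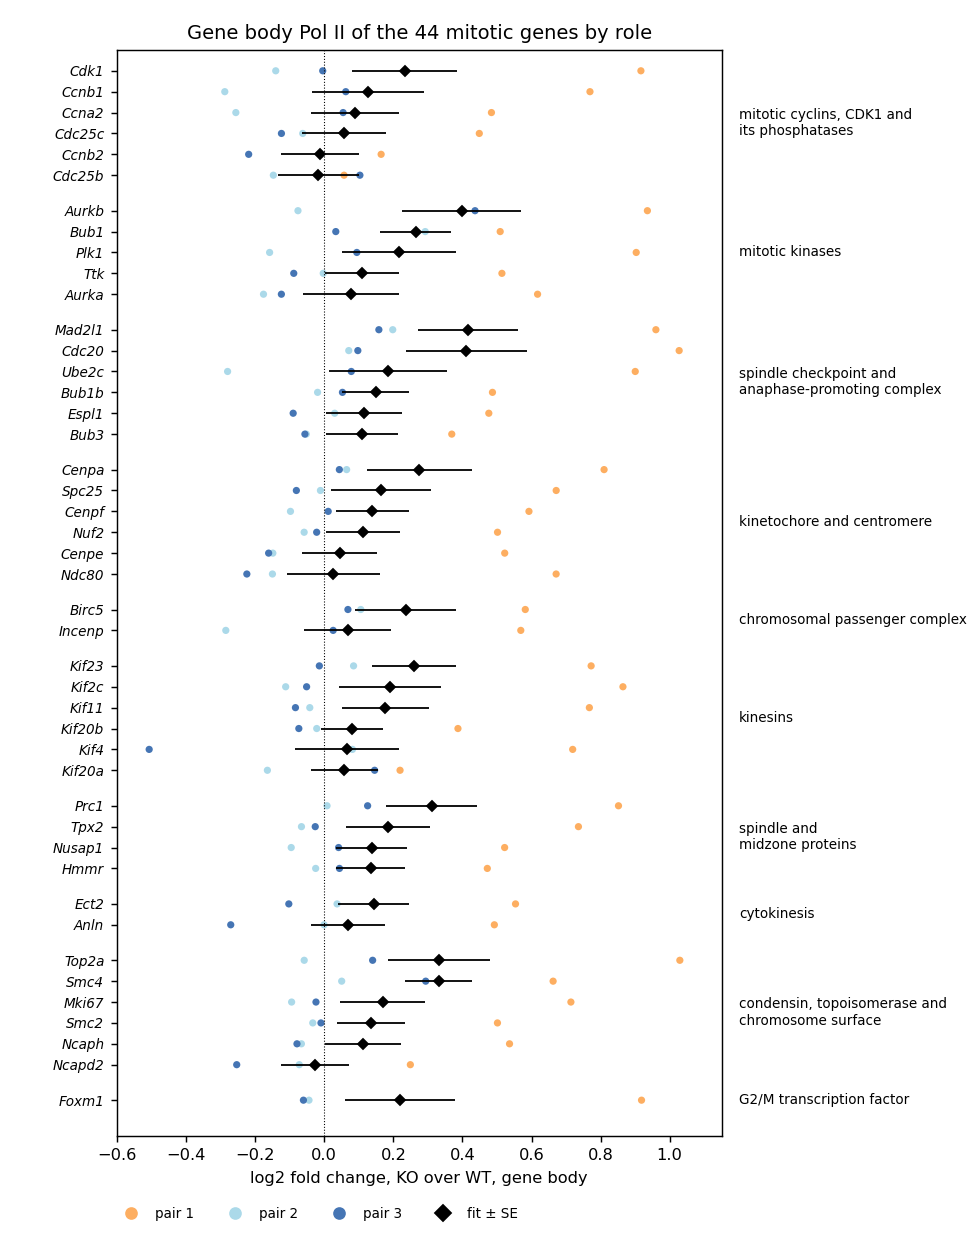
Gene body log2 fold change, KO over WT, of each of the 44 genes by role, as the fitted value ± SE (diamonds) and the difference within each pair (coloured points). The pair 1 point is the highest of the 3 for 43 of 44 genes, and the fitted values run from -0.03 to 0.42 with no call.

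Among the cyclins, the kinase they activate and its phosphatases, gene bodies differed little between the groups. Cdk1, the kinase that drives entry into mitosis, had 40.8, 39.4 and 47.8 CPM in KO, against 21.6, 43.4 and 47.9 CPM in WT. WT replicate 1 stood far below the other 5 libraries, and in pairs 2 and 3 the WT value lay just above that of KO. Its log2 fold change was 0.23 ± 0.15 (SE), adjusted p = 0.730. Ccna2, encoding cyclin A2, had 26.4, 22.5 and 29.5 CPM in KO, against 18.9, 26.9 and 28.4 CPM in WT, with overlapping groups and a log2 fold change of 0.09 ± 0.13 (SE), adjusted p = 0.887. Ccnb1, encoding the main mitotic cyclin B1, had 14.8, 16.0 and 22.2 CPM in KO, against 8.64, 19.5 and 21.3 CPM in WT, and its KO value was the lower one in pair 2 (log2 fold change 0.13 ± 0.16 (SE), adjusted p = 0.874). Ccnb2 and Cdc25b were among the 3 gene bodies with a fitted value below 0, both close to it. Ccnb2, encoding cyclin B2, had 15.0, 19.9 and 19.9 CPM in KO, against 13.4, 20.1 and 23.2 CPM in WT, for a log2 fold change of -0.01 ± 0.11 (SE), adjusted p = 0.986. Cdc25b, a phosphatase that activates CDK1, had 11.9, 16.8 and 16.8 CPM in KO, against 11.5, 18.6 and 15.7 CPM in WT, for a log2 fold change of -0.02 ± 0.12 (SE), adjusted p = 0.981. In both, the groups overlapped across their range. The sign of Cdc25b and Ccnb2 turned under scaling to library totals. Cdc25c, the other phosphatase of the group, had a log2 fold change of 0.06.

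The mitotic kinases were above 0 in 5 of 5 gene bodies, with a range of 0.08 to 0.40. Aurkb, the kinase of the chromosomal passenger complex, had 11.5, 11.0 and 16.1 CPM in KO, against 6.01, 11.6 and 11.9 CPM in WT. Here KO replicate 3 was the highest library and WT replicate 1 the lowest, and the others lay close together, for a log2 fold change of 0.40 ± 0.17 (SE), adjusted p = 0.591. Bub1, a checkpoint kinase at the kinetochore, had 21.8, 32.6 and 42.4 CPM in KO, against 15.3, 26.6 and 41.4 CPM in WT, with the KO library the higher one in each pair, by 0.51, 0.29 and 0.03 on the log2 scale. The levels ran mainly with the pair and so overlapped between groups (log2 fold change 0.27 ± 0.10 (SE), adjusted p = 0.524). Plk1, polo-like kinase, had 15.2, 17.9 and 21.2 CPM in KO, against 8.11, 20.0 and 19.8 CPM in WT, and only pair 1 differed by much (log2 fold change 0.22 ± 0.16 (SE), adjusted p = 0.770). Ttk had 26.5, 36.6 and 52.0 CPM in KO, against 18.5, 36.7 and 55.2 CPM in WT, with values that differed by pair far more than by genotype (log2 fold change 0.11 ± 0.11 (SE), adjusted p = 0.825). Aurka, the spindle pole kinase, had a log2 fold change of 0.08.

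Checkpoint genes and the machinery that ends mitosis held the largest fitted value of the 44, and all 6 were above 0. Mad2l1, encoding the checkpoint protein MAD2 that restrains CDC20, had 18.2, 20.4 and 24.2 CPM in KO, against 9.33, 17.8 and 21.7 CPM in WT. Its KO library was the higher one in every pair, by 0.96, 0.20 and 0.16, yet KO replicate 1 lay below WT replicate 3 (log2 fold change 0.42 ± 0.15 (SE), adjusted p = 0.465). Cdc20, the activator of the anaphase-promoting complex, had 14.9, 13.4 and 11.0 CPM in KO, against 7.28, 12.7 and 10.3 CPM in WT, with WT replicate 1 far below the rest (log2 fold change 0.41 ± 0.18 (SE), adjusted p = 0.578). The differences in pairs 2 and 3 were 0.07 and 0.10. The other members were Ube2c, the ubiquitin-conjugating enzyme of that complex (0.18), Bub1b (0.15), Espl1, the separase that cuts cohesin (0.11), and Bub3, the partner of BUB1 and BUBR1 (0.11), all as log2 fold changes.

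Condensin, topoisomerase and the chromosome surface gave the gene body with the smallest p of the class. Smc4 (chr3:69004738-69034623, GRCm38), a core ATPase of both condensins, had 80.8, 74.9 and 91.3 CPM in KO, against 51.0, 72.3 and 74.5 CPM in WT, and it was the only gene body of the 44 in which no KO library overlapped a WT library. KO replicate 2 exceeded the highest WT value, that of replicate 3, by less than 1 CPM. The log2 fold change was 0.33 ± 0.10 (SE), adjusted p = 0.358, and the pairs differed by 0.66, 0.05 and 0.29. Its promoter window also covers the start of Ift80 on the opposite strand. Top2a, the topoisomerase that untangles sister chromatids, had 58.8, 64.6 and 75.1 CPM in KO, against 28.8, 67.3 and 68.2 CPM in WT, with KO replicates 1 and 2 below WT replicates 2 and 3 (log2 fold change 0.33 ± 0.15 (SE), adjusted p = 0.593). Mki67, which encodes the surfactant-like coat protein of mitotic chromosomes, had 45.2, 57.5 and 60.2 CPM in KO, against 27.5, 61.4 and 61.3 CPM in WT, for a log2 fold change of 0.17 ± 0.12 (SE), adjusted p = 0.760. The lowest fitted gene body of the 44 was in the same group. Ncapd2, a subunit of condensin I, had 27.6, 34.2 and 40.1 CPM in KO, against 23.2, 36.0 and 47.8 CPM in WT, with an overlap throughout and a log2 fold change of -0.03 ± 0.10 (SE), adjusted p = 0.963. The condensin genes Smc2 and Ncaph had log2 fold changes of 0.13 and 0.11.

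Foxm1, the transcription factor that activates late cell cycle promoters, had a gene body level of 16.7, 20.9 and 23.2 CPM in KO, against 8.84, 21.6 and 24.2 CPM in WT. Apart from WT replicate 1, the WT values were slightly above the KO values of their pairs, and the log2 fold change was 0.22 ± 0.16 (SE), adjusted p = 0.760.

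**Figure D4:**
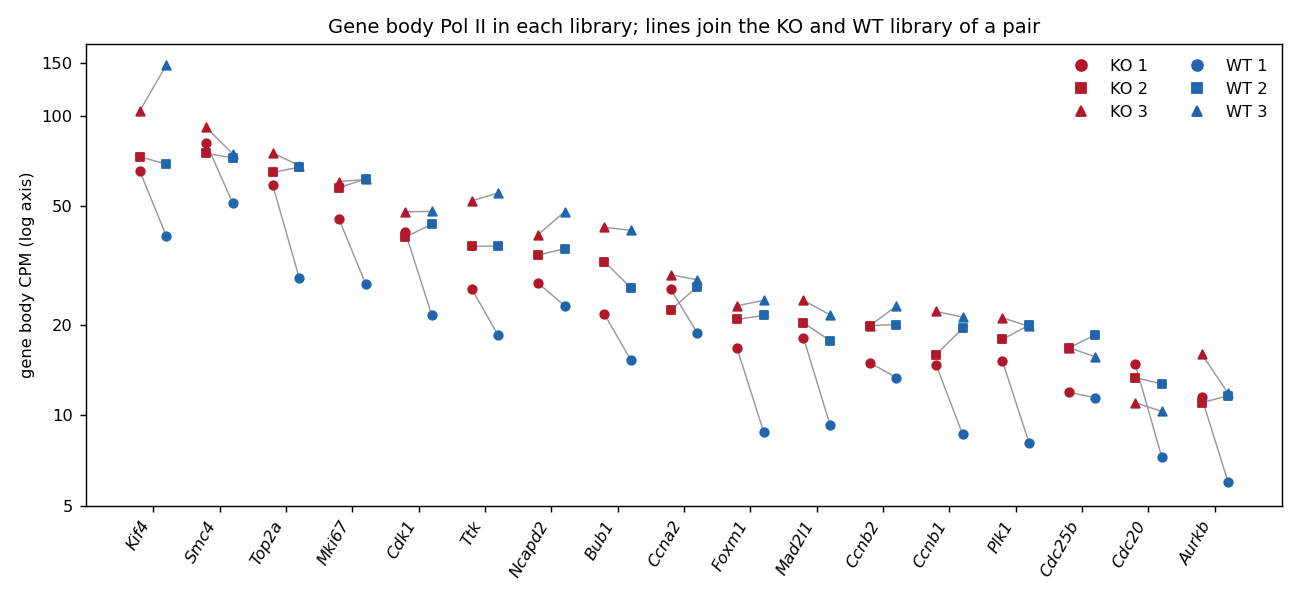
Gene body CPM (log axis) of 17 mitotic genes in every library, KO in red and WT in blue, with lines joining the KO and WT library of a replicate pair. The WT replicate 1 circle is the lowest point of each gene, for example 21.6 CPM for Cdk1 and 8.84 CPM for Foxm1, and the lines of pairs 2 and 3 are closer to level for most genes.

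In the remaining role groups the fitted gene body values were all above 0 and none was called. Kinetochore and centromere genes (Cenpa, Cenpe, Cenpf, Nuf2, Ndc80 and Spc25) ran from 0.03 to 0.27, the highest being Cenpa, which encodes the centromeric histone H3 variant. Kinesins ran from 0.06 to 0.26, the highest being Kif23, a motor of the central spindle, followed by Kif2c (0.19), Kif11 (0.18), Kif20b (0.08), Kif4 (0.06) and Kif20a (0.06). Spindle and midzone genes ran from 0.13 to 0.31, the highest being Prc1, which bundles antiparallel microtubules. The passenger subunits Birc5, encoding survivin, and Incenp had 0.24 and 0.07, and the cytokinesis genes Ect2 and Anln, encoding an activator of RhoA and the scaffold anillin, had 0.14 and 0.07.

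Kif4, a chromokinesin gene on the X chromosome, was singled out after its values were seen. Its gene body had 65.1, 72.9 and 104 CPM in KO, against 39.6, 68.9 and 148 CPM in WT, and the WT replicate 3 library, the one with little Y-linked signal, held the highest value. The differences within pairs were 0.72, 0.08 and -0.51, so pair 3 ran against pair 1. The part of the Y-linked difference in these values was not tested.

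At promoters the shift was smaller. The fitted log2 fold change was above 0 for 34 of 44 genes, with a median of 0.10, against 0.03 over all promoters, and the pair medians were 0.45, -0.06 and -0.18, with 41, 15 and 10 of 44 above 0. Over all promoters the pair medians were 0.09, 0.01 and -0.08. The sums over the 44 promoters were 368, 352 and 219 CPM in KO, against 265, 366 and 256 CPM in WT, so KO was higher in pair 1 and lower in the other pairs.

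Bub3 (chr7:131560222-131571895) had the smallest promoter p. Its promoter held 1.26, 6.19 and 4.67 CPM in KO, against 0.928, 1.03 and 2.19 CPM in WT, and 2 KO libraries stood above every WT library while KO replicate 1 did not. Its log2 fold change was 1.62 ± 0.34 (SE), adjusted p = 0.144, with differences of 0.42, 2.57 and 1.08 within pairs. The gene body of Bub3 had 33.5, 26.7 and 30.1 CPM in KO, against 25.9, 27.7 and 31.3 CPM in WT, for a log2 fold change of 0.11 ± 0.10 (SE), adjusted p = 0.818. These are low counts in a window that also lies within Fgfr2, annotated on the opposite strand, and the counts do not separate strands. The Bub3 promoter was called when the regions were scaled apart (adjusted p = 0.0484) and when autosomal genes alone were fitted (adjusted p = 0.0703), fits that called 0.553% and 0.452% of all promoters. It was also called without pair 1, where 2.03% of all promoters were called, and without pair 3, where 0.842% were. Without pair 2 the log2 fold change was 0.82 and it was not called (adjusted p = 0.770, limma-voom). Cenpf, a kinetochore gene named here after its values were seen, was called lower in KO without pair 1, with promoter levels of 7.05, 5.90 and 4.88 CPM in KO, against 3.03, 10.3 and 7.15 CPM in WT. Cdc25c was also called lower when KO or WT replicate 1 alone was left out, fits that called 2.94% and 2.93% of all promoters, and had 5.94, 5.85 and 3.75 CPM in KO, against 2.25, 8.07 and 7.72 CPM in WT.

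The next promoters by p, and those lower in KO, were less separated. Ncapd2 had 14.6, 14.6 and 10.3 CPM in KO, against 10.5, 11.3 and 9.75 CPM in WT, with KO higher in every pair and WT replicate 2 above KO replicate 3 (log2 fold change 0.34 ± 0.13 (SE), adjusted p = 0.508). That window also covers Mrpl51, a mitochondrial ribosomal protein gene. Tpx2, which activates Aurora A on spindle microtubules, had 2.52, 3.64 and 2.97 CPM in KO, against 1.03, 3.01 and 1.79 CPM in WT, again with KO higher in every pair (log2 fold change 0.65 ± 0.25 (SE), adjusted p = 0.511). Of the promoters lower in KO, Kif2c, a microtubule depolymerase at the kinetochore, had 6.69, 7.63 and 3.68 CPM in KO, against 7.57, 9.81 and 4.39 CPM in WT, and the KO value was the lower one in every pair (log2 fold change -0.27 ± 0.15 (SE), adjusted p = 0.669). Kif11, the motor that separates the spindle poles, had 12.5, 13.1 and 6.58 CPM in KO, against 12.7, 14.7 and 10.6 CPM in WT, with most of the difference in pair 3 (log2 fold change -0.22 ± 0.14 (SE), adjusted p = 0.725). Nuf2, a subunit of the NDC80 complex, had 7.31, 5.61 and 4.11 CPM in KO, against 7.91, 6.05 and 4.39 CPM in WT, and each pair differed by about the same small amount (log2 fold change -0.11 ± 0.15 (SE), adjusted p = 0.886). The Kif4 promoter, which did not overlap between groups, is shared with Pdzd11 and had 2.59, 2.78 and 2.12 CPM in KO, against 2.10, 1.66 and 1.62 CPM in WT, for a log2 fold change of 0.48 ± 0.23 (SE), adjusted p = 0.623.

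Promoters of widely used cell cycle markers overlapped between the groups. Cdk1 had 5.51, 5.61 and 4.46 CPM in KO, against 1.90, 5.54 and 4.55 CPM in WT, with WT replicate 1 alone set apart (log2 fold change 0.47 ± 0.26 (SE), adjusted p = 0.669). Aurkb had 6.15, 6.09 and 4.25 CPM in KO, against 1.71, 6.29 and 6.50 CPM in WT, likewise with a low WT replicate 1 (log2 fold change 0.35 ± 0.32 (SE), adjusted p = 0.812). Plk1 had 7.85, 7.05 and 3.89 CPM in KO, against 2.88, 7.91 and 5.77 CPM in WT, and here KO was lower in pairs 2 and 3 (log2 fold change 0.29 ± 0.28 (SE), adjusted p = 0.824). The same arrangement held for the next genes, in which pair 1 pointed up and pairs 2 and 3 pointed down or stayed level. Mki67 had 9.00, 7.34 and 5.81 CPM in KO, against 3.76, 10.3 and 8.45 CPM in WT (log2 fold change 0.07 ± 0.27 (SE), adjusted p = 0.964). Top2a had 10.5, 7.00 and 5.59 CPM in KO, against 5.03, 9.46 and 5.85 CPM in WT (log2 fold change 0.22 ± 0.24 (SE), adjusted p = 0.845). Ccnb1 had 7.05, 8.20 and 5.88 CPM in KO, against 4.83, 9.30 and 6.99 CPM in WT (log2 fold change 0.04 ± 0.18 (SE), adjusted p = 0.966). In none of these did the groups separate.

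In the other promoters, pair 3 was often the low one. Cdc20 had 15.5, 13.4 and 6.73 CPM in KO, against 11.8, 13.7 and 8.04 CPM in WT, with levels that were low in both libraries of pair 3 (log2 fold change 0.10 ± 0.14 (SE), adjusted p = 0.885). Foxm1 had 15.3, 11.8 and 7.15 CPM in KO, against 10.4, 11.9 and 7.96 CPM in WT, again low in pair 3 (log2 fold change 0.19 ± 0.15 (SE), adjusted p = 0.777). The Foxm1 promoter window also covers Rhno1 on the opposite strand. Ttk had 20.8, 16.5 and 8.99 CPM in KO, against 15.7, 18.1 and 10.8 CPM in WT, the highest promoter of the class in 3 of the 6 libraries and by its mean (log2 fold change 0.07 ± 0.14 (SE), adjusted p = 0.921). Pair 3 was the one with the lowest promoter share of all counts. Ccna2 had 6.73, 9.69 and 4.39 CPM in KO, against 5.91, 11.3 and 3.98 CPM in WT, the highest values being those of pair 2 in both genotypes (log2 fold change -0.02 ± 0.16 (SE), adjusted p = 0.989), and its sign turned in the fit without the block. Bub1 had 3.28, 5.04 and 2.83 CPM in KO, against 1.56, 4.51 and 3.25 CPM in WT, with KO lower in pair 3 (log2 fold change 0.33 ± 0.23 (SE), adjusted p = 0.745).

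At TES regions the fitted values lay on both sides of 0, with a median above that of all TES regions. The fitted value was above 0 for 28 of 44 genes (34.4% of all TES regions). The median was 0.06, against -0.08 over all TES regions. Pair medians were 0.55, -0.15 and -0.17, against -0.13, -0.06 and -0.03 over all TES regions. With the regions scaled apart, the median was 0.13 and 32 of 44 were above 0, against a median of -0.01 over all TES regions. Cenpa had 1.87, 5.47 and 2.34 CPM in KO, against 1.47, 2.45 and 2.60 CPM in WT, and the single high value was that of KO replicate 2 (log2 fold change 0.64 ± 0.26 (SE), adjusted p = 0.551). Incenp had 3.53, 4.70 and 6.02 CPM in KO, against 2.25, 4.31 and 4.22 CPM in WT, with KO higher in every pair (log2 fold change 0.39 ± 0.19 (SE), adjusted p = 0.625). The window of Kif23 that covers Rplp1 had 62.5, 35.5 and 32.7 CPM in KO, against 53.9, 36.3 and 22.9 CPM in WT, with the pair 1 libraries highest in both genotypes (log2 fold change 0.18 ± 0.09 (SE), adjusted p = 0.646). Lower in KO were Ccnb2, Ube2c and Kif4. Ccnb2 had 2.48, 3.64 and 4.46 CPM in KO, against 2.73, 4.59 and 5.28 CPM in WT, the KO value being lower in every pair (log2 fold change -0.25 ± 0.18 (SE), adjusted p = 0.761). Ube2c had 0.972, 0.623 and 1.35 CPM in KO, against 0.781, 1.23 and 2.11 CPM in WT, the lowest mean KO level of the class (log2 fold change -0.43 ± 0.33 (SE), adjusted p = 0.778). Kif4 had 2.34, 3.26 and 3.96 CPM in KO, against 1.86, 3.96 and 6.34 CPM in WT, with the highest value again in WT replicate 3 (log2 fold change -0.25 ± 0.21 (SE), adjusted p = 0.800). All 6 overlapped between the groups. The TES region of Ttk had 2.63, 3.31 and 4.53 CPM in KO, against 1.22, 4.08 and 5.85 CPM in WT and a log2 fold change of 0.01 ± 0.25 (SE), adjusted p = 0.998.

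Ratios within a library do not depend on scaling between libraries. The pausing index was taken as promoter counts over gene body counts on the log2 scale, and 0 of the 44 genes were called, against 0.0331% of 12096 genes tested. Its difference was below 0 for 32 of the 44 genes, with a median of -0.12, against 0.01 over all genes, and the pair medians were -0.09, -0.01 and -0.18. Per base, the median index of the 44 genes was 3.46, 3.16 and 2.22 in KO, against 3.47, 3.25 and 2.59 in WT. The medians over all genes were 3.16, 3.12 and 2.07 in KO, against 3.07, 3.11 and 2.13 in WT. Pair 3 was the low one in both genotypes, by more than KO and WT differed within a pair.

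**Figure D5:**
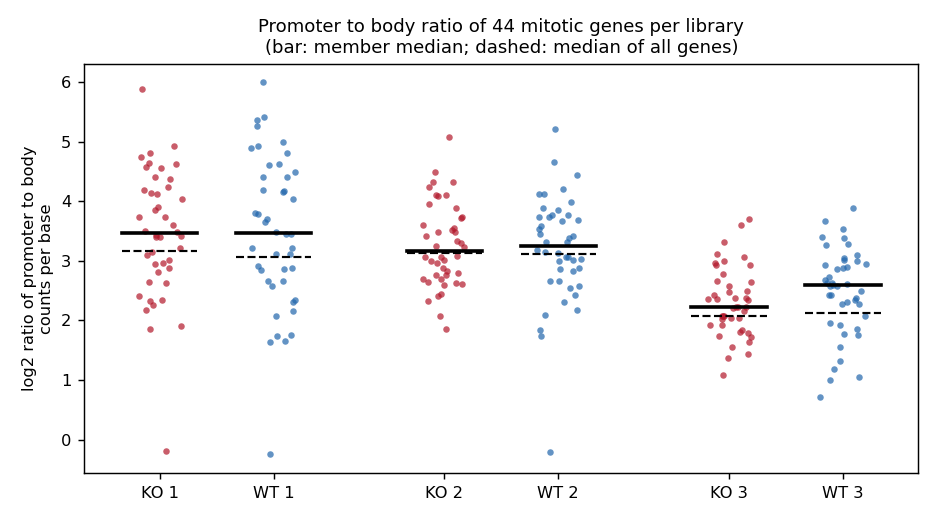
Log2 ratio of promoter counts to those of the gene body, per base, for the 44 mitotic genes in each library, KO left of WT within a pair, with the members' median (bar) and the median of all genes (dashed). The members' medians are 3.46, 3.16 and 2.22 in KO and 3.47, 3.25 and 2.59 in WT, and the lowest point of each WT library is Bub3.

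The smallest p of the pausing index belonged to Bub3 and Mad2l1. As log2 ratios of counts, Bub3 had -4.71, -2.11 and -2.68 in KO, against -4.77, -4.72 and -3.81 in WT, a difference of 1.27 ± 0.38 (SE), adjusted p = 0.303, with KO replicate 1 among the WT values. Mad2l1 had -0.40, -0.99 and -2.18 in KO, against 0.46, -0.77 and -1.65 in WT, a difference of -0.54 ± 0.19 (SE), adjusted p = 0.357. KO was the lower one for Mad2l1 in every pair, while the libraries of 1 genotype differed by more than that. For the TES to body ratio, 0 of the 44 were called, against 0.00828% of 12076 genes, with a median difference of -0.10 and of -0.08 over all genes. Ube2c had -4.36, -4.93 and -4.16 in KO, against -3.75, -4.26 and -3.44 in WT, a difference of -0.66 ± 0.18 (SE), adjusted p = 0.564, with KO the lower one in each pair. Mad2l1 had -3.11, -3.13 and -2.57 in KO, against -2.75, -2.61 and -2.05 in WT, a difference of -0.47 ± 0.17 (SE), adjusted p = 0.613, again lower in each pair and overlapping between groups.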

How the data were processed

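POLR2A ChIP-seq libraries of 3 KO and 3 WT NPC cultures were used. The submitters' processing notes name BWA, Picard and Trimmomatic, with bcl2fastq (2.20), MACS2, HOMER, limma and edgeR. By the study's methods, HOMER counted the reads, and the authors removed genes without signal in KO, a filter that was not applied to WT. The deposited table of raw read counts holds, for each gene, a promoter (from 400 bases before to 100 after the start), a gene body and a TES region (from 100 bases before to 2000 after the end). The authors also deposited log2 CPM values, used here only as an alternative. Which annotation set the region borders is not stated in what was read. No input or spike-in was used here, so a change shared by all regions cannot be seen.

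Counts of all regions of 12107 genes were fitted together with limma-voom (limma 3.58.1, edgeR 4.0.16, R 4.3.3) after TMM scaling, taking the pair as a block, with Benjamini-Hochberg adjustment over all regions. A call is an adjusted p under 0.1. Deviations of same-numbered libraries from their group means correlated at 0.70, 0.66 and 0.63 in promoters, 0.88, 0.74 and 0.83 in gene bodies and 0.75, 0.56 and 0.67 in TES regions (0.66, 0.27 and 0.83 over the regions of the 44 genes), and the study describes biological replicate pairs. Ratios were log2 of counts plus 0.5, where both regions averaged 10 counts or more, tested with limma and the same block. No 2 libraries of the same genotype agreed within sampling noise. Where the sources name no separate litters, p-values measure the spread between these libraries. Positions and overlapping genes came from GENCODE vM21 (GRCm38), which matched 12060 genes by symbol. Overlaps are named above for some members only. Among others, the gene bodies of Foxm1, Ccna2 and Cdc25b overlap Tex52, Exosc9 and Spef1, and the Ube2c TES region overlaps Tnnc2.

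The members and gene lists were chosen with earlier results of these data known. Full values are given for gene bodies, promoters and TES regions with the 3 smallest p in each direction, for 10 standard markers and for Ttk. Alternatives were the fit without the block, edgeR's quasi-likelihood test, DESeq2 (1.42.0), other scalings and filters, and leaving out libraries.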

Additional observations from a re-analysis of the deposited data

How the results depend on the processing

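Under scaling the regions apart, and with autosomal genes alone, 1 mitotic promoter was called (Bub3), beside 0.553% and 0.452% of all promoters, and the other alternatives that kept all libraries called none of the 132 regions, including the fit with no replicate block (0 called in each region, with median log2 fold changes of 0.08 in promoters, 0.17 in bodies and 0.15 at the TES). Some log2 fold changes close to 0 changed sign, without a call. That of the Ccna2 promoter was 0.0574 without pairing and 0.00844 with edgeR. It was 0.0191 with DESeq2 and 0.0335 with deposited log2 CPM. The log2 fold change of the Cdc25b gene body was 0.000635 with library totals and 0.00437 with deposited log2 CPM. For the Ccnb2 gene body the log2 fold change was 0.00627 with library totals. The share of promoters with CHR letters was 41.7% with upstream bases alone, since the bases after the start were then not searched. Leaving out libraries gave 0 to 3 promoters called (0.0165 to 2.94% of all promoters), 0 to 1 gene bodies (Smc4 without KO replicate 2, adjusted p = 0.0546, limma-voom, beside 0.834% of all gene bodies), 0 TES regions and 0 to 1 pausing index (Bub3 without pair 1, beside 371 of 12073 genes). Medians ranged from -0.05 to 0.29 in gene bodies, -0.11 to 0.22 in promoters and -0.12 to 0.17 in TES regions, all below 0 without pair 1 or either of its libraries. Leaving out 1 library leaves its partner without weight under the block. Of 17 named gene bodies, 8 changed sign without pair 1, 2 without pair 2 and 2 without pair 3. The causes were not tested.

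Across the omissions, promoter values ranged from -0.26 to 0.66 for Aurkb, -0.13 to 0.18 for Ccna2, -0.21 to 0.20 for Ccnb1, -0.10 to 0.20 for Cdc20, -0.0591 to 0.33 for Foxm1, -0.51 to 0.44 for Mki67, -0.30 to 0.59 for Plk1, -0.30 to 0.62 for Top2a, -0.17 to 0.22 for Ttk and 0.81 to 1.96 for Bub3. Gene body values ranged from -0.12 to 0.31 for Ccna2, -0.14 to 0.41 for Ccnb1, -0.0948 to 0.0801 for Ccnb2, -0.0569 to 0.0862 for Cdc25b, -0.0807 to 0.48 for Cdk1, -0.0509 to 0.42 for Foxm1, -0.21 to 0.39 for Kif4, -0.0640 to 0.36 for Mki67, -0.15 to 0.0840 for Ncapd2, -0.0562 to 0.50 for Plk1, -0.0435 to 0.22 for Ttk and 0.16 to 0.51 for Smc4. The Ttk TES region ranged from -0.33 to 0.25, and the Bub3 pausing difference from 0.59 to 1.87. With 3 libraries a genotype and 14528870 to 25199455 counts, small differences at low-count promoters and TES regions are the least precise.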
